A study of Mus musculus with 16 samples.

Results

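The odorant receptor genes of mouse chromosome 2 that carry low receptor numbers were followed in sorted cells of the olfactory mucosa. The set holds every probe set that the array's annotation places on chromosome 2 and names Olfr with a number below 400, pseudogenes and Olfr73 left out. That gave 39 receptors of 1090 odorant receptors, a total whose rule did not leave out pseudogenes, and of 19572 tested probe sets. Olfr353 and its neighbours form the proximal receptor cluster of the chromosome, but by gene order only 27 of the 39 receptors, Olfr338 to Olfr368, lie there. The other 12 (Olfr154, Olfr52, Olfr228, Olfr141, Olfr259, Olfr153, Olfr152, Olfr74, Olfr48, Olfr140, Olfr32 and Olfr142) lie among the distal receptors, with 638 annotated genes between the 2 places, so the 39 are called here the low-numbered receptors of chromosome 2.

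Every group came from S100a5-tauGFP mice, in which GFP reports S100a5, so that all animals, controls too, carry the reporter. The labels give 24 mice of both sexes, aged 7 to 12 weeks, kept singly for 40 h in chambers under clean air. From 26 h on, mice received pulses of 10 s every 20 min of citrus accord at 100% or of vehicle, which was filtered air. Cells of 3 mice were pooled and sorted, and each sort gave 1 array of GFP+ cells and 1 of GFP- cells, so the 16 arrays form 4 groups of 4: citrus GFP+, citrus GFP-, vehicle GFP+ and vehicle GFP-. Precision is limited by having 4 arrays a group, and pooling hides the spread between single mice. The sources used here name neither the zygosity of the reporter nor the strain.

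An olfactory sensory neuron expresses as a rule 1 odorant receptor gene, from 1 allele, and all neurons with that receptor send their axons to shared glomeruli. An odorant that binds the receptor acts through the G protein Golf, adenylyl cyclase and a cyclic nucleotide-gated channel. S100a5 codes for a calcium-binding protein whose expression in these neurons depends on activity. In a tissue sample, the signal of a receptor follows both how many neurons chose it and how much of its mRNA each holds. In these pools, fewer cells with a receptor and less receptor RNA per cell cannot be told apart.

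The sequences before Olfr353 and Olfr351 are shown because both genes belong to the MOR127 family and they gave the smallest p of the 39 when the gate differences of the 2 stimuli were compared. Both are the 250 bases before the RefSeq gene start on GRCm38.p6, minus strand, at chr2:36890847-36891096 for Olfr353 and chr2:36860347-36860596 for Olfr351. Capitals mark runs of at least 10 bases that the 2 share in alignment, 3 runs with 46 bases in all.
Olfr353: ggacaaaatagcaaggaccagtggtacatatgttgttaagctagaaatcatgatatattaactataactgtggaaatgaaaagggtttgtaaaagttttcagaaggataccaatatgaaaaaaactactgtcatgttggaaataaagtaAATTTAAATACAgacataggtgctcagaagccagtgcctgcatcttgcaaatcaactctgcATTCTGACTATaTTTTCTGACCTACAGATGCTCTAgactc
Olfr351: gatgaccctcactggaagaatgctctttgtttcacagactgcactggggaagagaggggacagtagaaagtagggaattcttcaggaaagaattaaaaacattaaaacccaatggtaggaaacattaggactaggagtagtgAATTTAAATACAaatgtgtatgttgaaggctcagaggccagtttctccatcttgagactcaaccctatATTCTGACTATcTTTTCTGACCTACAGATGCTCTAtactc
The gene models of 34 of the 39 receptors have a length that is a multiple of 3 and under 1200 bases, as a coding sequence alone would, so these windows lie before the coding start and not before a mapped transcription start. Over windows of 300 bases, 50 of them after the start, Olfr353 and Olfr351 were 63.5% identical, and Olfr353 had no closer partner among the receptors with a window. The third MOR127 receptor, Olfr354, had a highest identity of 52.6%, with Olfr340 of another family.

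A second pair is shown because its windows were the most alike of all 630 pairs, 84.0% identical over the same 300 bases, while one was lower in GFP+ cells and the other passed in neither stimulus. Olfr346, the receptor with the largest deficit in GFP+ cells, is at chr2:36687754-36688003, and Olfr339 is at chr2:36421150-36421399, both on the plus strand. Capitals mark homeodomain-type letters, TAATTA or TAATTG or TAATGA on either strand.
Olfr346: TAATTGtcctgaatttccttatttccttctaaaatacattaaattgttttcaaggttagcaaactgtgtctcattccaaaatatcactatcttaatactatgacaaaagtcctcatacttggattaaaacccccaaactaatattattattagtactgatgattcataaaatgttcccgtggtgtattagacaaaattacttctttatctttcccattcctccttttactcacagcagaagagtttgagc
Olfr339: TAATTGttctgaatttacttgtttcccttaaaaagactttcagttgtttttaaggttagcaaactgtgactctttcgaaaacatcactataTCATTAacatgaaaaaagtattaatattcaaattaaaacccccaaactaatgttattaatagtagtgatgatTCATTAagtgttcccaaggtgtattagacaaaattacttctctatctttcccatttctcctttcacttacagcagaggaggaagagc
Homeodomain factors such as Lhx2 and Emx2 are known to act on odorant receptor promoters in mouse. In the 250 bases before the start, at least 1 of these forms, which may overlap one another, was found in 50.0% of the 36 low-numbered receptors that have a window, against 51.0% of 942 receptor windows and 18.0% of all 32544 windows, so the 36 lay near receptors at large. TAATGA stood in 25.0% of the 36 and in 25.4% of the receptor windows. TAATTA was in 16.7% against 17.9%, and TAATTG in 19.4% against 22.5%. With the 50 bases after the start counted in, which belong to the coding sequence where the model holds coding length alone, the share with any form was 63.9% against 53.7%, and that of TAATGA 44.4% against 28.8%. The letters CCCNNGGG, the core of sites for Olf/Ebf factors, were in 0.0% of the 36 before the start, in 2.8% of receptor windows and in 11.9% of all windows. Neither printed MOR127 window holds any of the homeodomain-type forms. Over all pairs the median identity was 49.1%, over the 91 pairs of the same MOR family 56.6%, and over the 539 pairs of different families 48.7%. The table holds no window for Olfr48, Olfr50 and Olfr74.

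The sorted cells carried reporter and neuron signals, with other cell types in the GFP- gate. S100a5 was higher in GFP+ cells by 1.88 ± 0.13 (log2, SE) with citrus (adjusted p = 8.64e-09) and by 1.91 ± 0.13 with vehicle (adjusted p = 8.38e-09). Omp, a marker of mature sensory neurons, gave 0.18 ± 0.14 and 0.27 ± 0.14 and passed in neither (adjusted p = 0.398 and 0.192). The mean of 15 mature neuron markers was 16.56 to 16.66 in citrus GFP+ and 16.42 to 16.62 in vehicle GFP+ cells. In GFP- cells that mean was 16.05 to 16.34 with citrus and 16.11 to 16.32 with vehicle, below every GFP+ array. Of the 15 markers, 5 were higher in GFP+ cells with citrus and 4 with vehicle. Markers of immature neurons were lower in GFP+ cells for 6 of 10 in each stimulus. All 9 microvillous and tuft markers were lower in both, though 6 of these 9 stayed below background on all arrays. Of 6 globose basal and cycling markers, 4 of them below background throughout, 6 were lower with citrus and 5 with vehicle. Of 7 sustentacular markers, 2 of them below background throughout, 2 were lower with citrus (Sox2 and Sult1c1) and 1 with vehicle (Sox2). Sox2 was among those below background. Of 5 Bowman gland markers, 2 of them below background throughout, 3 were lower with citrus (Ltf, Sox9 and Aqp5) and 2 with vehicle (Ltf and Sox9). Here Aqp5 was among those below background. Of 5 horizontal basal markers, all below background throughout, 0 passed in either stimulus. All 14 measured myeloid and lymphoid markers were lower, with list means of 5.86 to 6.14 in citrus GFP+, 12.97 to 14.77 in citrus GFP-, 5.59 to 6.78 in vehicle GFP+ and 13.74 to 14.63 in vehicle GFP- cells. Of these 14 none stayed below background on all arrays. The part of these cell types in the receptor differences between the gates was not tested. Of 16 measured genes of the olfactory transduction list, 6 were higher and 1 lower in citrus GFP+ cells, and 4 higher and 1 lower in vehicle GFP+ cells. Ano2, the chloride channel, and Pde1c, a phosphodiesterase, were higher in both. The lower gene was Grk3 in both stimuli, and it stayed below background on all arrays.

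Signal strength separated the low-numbered receptors widely. As a mark of background, the 95th percentile of 5222 negative-control probes was used, which lay between 8.75 and 9.71 log2 on the 16 arrays. Olfr360 and Olfr140 exceeded it on all arrays, 16 receptors did so on some, and 21 on none, among them Olfr351, Olfr353 and Olfr354. A receptor below that mark may still be measured, since the controls differ from one another in base composition, but its log2 difference may understate the change in RNA. Olfr360, of the MOR159 family, had the highest mean, 12.32, with 11.91, 12.19, 12.96 and 11.98 in citrus GFP+ cells, 13.05, 12.97, 12.29 and 12.95 in citrus GFP- cells, 11.24, 11.59, 11.71 and 12.46 in vehicle GFP+ cells and 12.58, 11.75, 12.62 and 12.88 in vehicle GFP- cells. Its 4 groups overlapped. Olfr345 had the lowest mean, 3.16, with 3.66, 2.65, 3.39 and 3.00 in citrus GFP+ cells, 2.49, 3.45, 3.24 and 2.65 in citrus GFP- cells, 3.52, 3.27, 2.98 and 2.97 in vehicle GFP+ cells and 3.35, 3.71, 3.11 and 3.09 in vehicle GFP- cells, and its groups overlapped too. The median of the 39 means was 6.51. Levels of different probe sets cannot be ranked as RNA amounts, since each responds with its own strength. Counted per array, 10 to 15 of the 39 exceeded background in citrus GFP+ cells, 5 to 6 in citrus GFP-, 8 to 13 in vehicle GFP+ and 5 to 7 in vehicle GFP- cells.

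**Figure D1:**
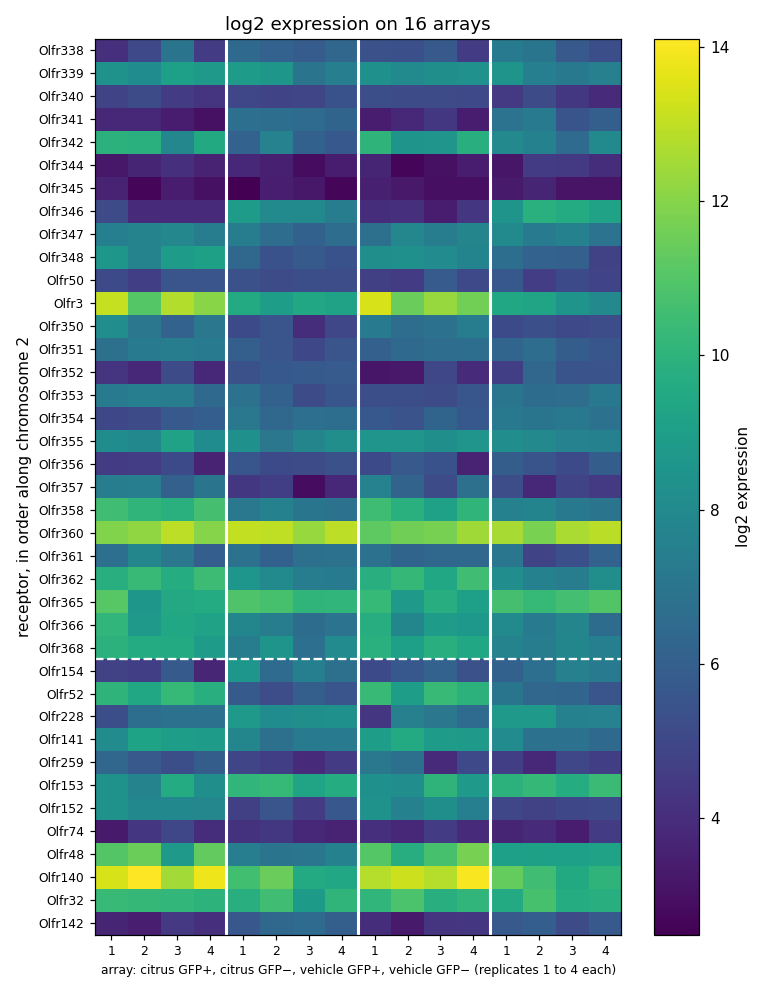
Log2 expression (colour) of the 39 receptors in chromosome order (rows) on the 16 arrays (columns, 4 groups of replicates 1 to 4); the dashed line parts the 27 proximal from the 12 distal receptors. Olfr360, Olfr140 and Olfr3 are the brightest rows, and Olfr345 and Olfr344 have the lowest means.

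The first question was which of these receptors were carried more by reporter-positive cells. With citrus, 17 of the 39 were higher and 8 lower in GFP+ than in GFP- cells at an adjusted p under 0.05, and 14 did not pass. Over all tested probe sets, 7.44% were higher and 10.8% lower. With vehicle, 14 were higher, 10 lower and 15 did not pass, where 9.05% of all tested probe sets were higher and 9.97% lower. The share higher was 43.6% with citrus and 35.9% with vehicle, near the 42.4% and 39.0% of the 1051 other odorant receptors. It is thus a share of receptors at large and not particular to these 39. The share lower was 20.5% and 25.6%, beside 19.6% and 20.3% of those others, whose rule did not leave out pseudogenes. The median difference of the 39 was 0.49 with citrus and 0.35 with vehicle, beside 0.74 and 0.57 over the other receptors and 0.13 and 0.11 over all tested probe sets.

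The split depended on the scaling. With each array centred on the median of all tested probe sets, which moved the median of all by over 0.1 to 0.46 with citrus and 0.39 with vehicle, 20 were higher and 8 lower with citrus, and 18 and 7 with vehicle. With arrays centred on the receptor median, the median of all was -0.61 and -0.34, and 14 were higher and 14 lower with citrus, and 11 and 14 with vehicle. No receptor that had passed turned its sign under either.

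Olfr52 of the distal group led the receptors that were higher in GFP+ cells. It read 10.06, 9.47, 10.29 and 9.77 in citrus GFP+ cells, 5.77, 5.22, 6.02 and 5.54 in citrus GFP- cells, 10.38, 8.99, 10.37 and 9.96 in vehicle GFP+ cells and 7.00, 6.31, 6.27 and 5.57 in vehicle GFP- cells. In both stimuli the 4 GFP+ arrays all lay above the 4 GFP- arrays. The difference was 4.26 ± 0.32 with citrus (adjusted p = 2.08e-08) and 3.64 ± 0.32 with vehicle (adjusted p = 1.79e-07). Olfr48, also distal, read 11.00, 11.47, 8.74 and 11.29 in citrus GFP+ cells, 7.46, 6.96, 7.07 and 7.61 in citrus GFP- cells, 11.03, 9.72, 10.73 and 11.70 in vehicle GFP+ cells and 9.04, 9.10, 9.03 and 9.18 in vehicle GFP- cells. Its GFP+ arrays lay above its GFP- arrays in each stimulus, and its GFP- arrays were lower with citrus than with vehicle. The difference was 3.35 ± 0.47 with citrus (adjusted p = 3.80e-05) and 1.71 ± 0.47 with vehicle (adjusted p = 0.0161). The vehicle call of Olfr48 was kept in 11 of 15 alternatives and lost with receptor-median centring and without vehicle replicate 1, 3 or 4. Olfr140, the second brightest by mean, read 13.38, 14.10, 12.51 and 13.81 in citrus GFP+ cells, 10.60, 11.44, 9.60 and 9.39 in citrus GFP- cells, 12.83, 13.21, 12.83 and 13.99 in vehicle GFP+ cells and 11.37, 10.53, 9.53 and 10.05 in vehicle GFP- cells. Again no GFP+ array fell among the GFP- arrays. The difference was 3.19 ± 0.46 with citrus (adjusted p = 5.11e-05) and 2.84 ± 0.46 with vehicle (adjusted p = 0.000206). Olfr152 read 8.45, 7.92, 7.93 and 7.85 in citrus GFP+ cells, 4.71, 5.57, 4.54 and 5.64 in citrus GFP- cells, 8.41, 7.59, 8.26 and 7.49 in vehicle GFP+ cells and 4.96, 4.80, 4.99 and 5.04 in vehicle GFP- cells, with the gates apart in both stimuli. The difference was 2.92 ± 0.26 with citrus (adjusted p = 1.72e-07) and 2.99 ± 0.26 with vehicle (adjusted p = 1.64e-07).

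In the proximal cluster, Olfr358, Olfr357 and Olfr3 had the largest positive differences with citrus, and Olfr3 and Olfr358 with vehicle. Olfr358, of the MOR159 family, read 10.54, 10.08, 9.88 and 10.67 in citrus GFP+ cells, 7.13, 7.57, 7.00 and 6.80 in citrus GFP- cells, 10.50, 9.85, 9.12 and 10.07 in vehicle GFP+ cells and 7.60, 7.73, 7.19 and 6.95 in vehicle GFP- cells. The gates did not overlap in either stimulus. The difference was 3.17 ± 0.27 with citrus (adjusted p = 1.12e-07) and 2.52 ± 0.27 with vehicle (adjusted p = 2.09e-06). Olfr357, of the MOR138 family, read 7.43, 7.45, 6.03 and 6.96 in citrus GFP+ cells, 4.35, 4.66, 2.87 and 3.78 in citrus GFP- cells, 7.66, 6.18, 5.14 and 6.78 in vehicle GFP+ cells and 5.22, 3.84, 4.88 and 4.47 in vehicle GFP- cells. With citrus the gates were apart, and with vehicle GFP+ replicate 3 lay among the GFP- arrays. The difference was 3.05 ± 0.48 with citrus (adjusted p = 0.000139) and 1.83 ± 0.48 with vehicle (adjusted p = 0.0122), a vehicle call lost without vehicle replicate 2 or 4. Olfr3, of the MOR136 family, read 13.08, 11.03, 12.74 and 12.03 in citrus GFP+ cells, 9.59, 8.97, 9.41 and 9.19 in citrus GFP- cells, 13.39, 11.44, 12.31 and 11.64 in vehicle GFP+ cells and 9.47, 9.25, 8.50 and 7.96 in vehicle GFP- cells. Its GFP+ arrays were all above its GFP- arrays. The difference was 2.93 ± 0.45 with citrus (adjusted p = 9.49e-05) and 3.40 ± 0.45 with vehicle (adjusted p = 2.18e-05).

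Olfr346, of the MOR136 family, had the most negative difference of the 39 in both stimuli. It read 5.13, 3.88, 3.92 and 3.93 in citrus GFP+ cells, 8.88, 8.05, 8.04 and 7.41 in citrus GFP- cells, 3.99, 4.05, 3.42 and 4.32 in vehicle GFP+ cells and 8.51, 9.88, 9.62 and 9.17 in vehicle GFP- cells. The GFP+ arrays were all far below the GFP- arrays. The difference was -3.88 ± 0.35 with citrus (adjusted p = 1.87e-07) and -5.35 ± 0.35 with vehicle (adjusted p = 4.53e-09). Olfr341, a family member nearby, read 3.77, 3.84, 3.36 and 3.01 in citrus GFP+ cells, 6.73, 6.70, 6.54 and 6.24 in citrus GFP- cells, 3.44, 3.85, 4.38 and 3.39 in vehicle GFP+ cells and 6.91, 7.25, 5.51 and 6.02 in vehicle GFP- cells. Here too the gates did not overlap. The difference was -3.06 ± 0.32 with citrus (adjusted p = 1.40e-06) and -2.66 ± 0.32 with vehicle (adjusted p = 8.41e-06). Olfr352, which lies between Olfr351 and Olfr353, read 4.23, 3.84, 5.21 and 3.77 in citrus GFP+ cells, 5.35, 5.67, 5.76 and 5.83 in citrus GFP- cells, 3.21, 3.27, 4.97 and 3.87 in vehicle GFP+ cells and 4.66, 6.33, 5.49 and 5.44 in vehicle GFP- cells. Its gates overlapped with vehicle only. The difference was -1.39 ± 0.39 with citrus (adjusted p = 0.0178) and -1.65 ± 0.39 with vehicle (adjusted p = 0.00602). Its call was lost without citrus replicate 2 or 4 with citrus, and without vehicle replicate 2 with vehicle.

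Among the distal receptors, Olfr154 read 4.79, 4.65, 5.76 and 3.74 in citrus GFP+ cells, 8.60, 6.55, 7.52 and 6.76 in citrus GFP- cells, 5.12, 5.68, 6.12 and 5.36 in vehicle GFP+ cells and 6.11, 6.74, 7.54 and 7.21 in vehicle GFP- cells. Its gates overlapped with vehicle, where GFP+ replicate 3 reached the lowest GFP- array. The difference was -2.62 ± 0.45 with citrus (adjusted p = 0.000276) and -1.33 ± 0.45 with vehicle (adjusted p = 0.0444). The vehicle call of Olfr154 was kept in 8 of 14 alternatives (adjusted p from 0.00402 to 0.197) and was lost when any 1 vehicle replicate was left out, with centring on the median of all probe sets and with the trended and robust prior. Olfr142 read 3.69, 3.46, 4.40 and 4.05 in citrus GFP+ cells, 5.65, 6.42, 6.55 and 6.01 in citrus GFP- cells, 3.99, 3.31, 4.27 and 4.34 in vehicle GFP+ cells and 5.71, 5.98, 5.15 and 5.74 in vehicle GFP- cells, apart in both stimuli. The difference was -2.26 ± 0.27 with citrus (adjusted p = 5.37e-06) and -1.67 ± 0.27 with vehicle (adjusted p = 0.000186). Olfr228 read 5.30, 6.67, 6.84 and 6.81 in citrus GFP+ cells, 8.71, 8.13, 8.28 and 8.32 in citrus GFP- cells, 4.34, 7.55, 7.08 and 6.56 in vehicle GFP+ cells and 8.71, 8.77, 7.57 and 7.62 in vehicle GFP- cells. Citrus GFP+ replicate 1 and vehicle GFP+ replicate 1 were the lowest arrays of their groups, and no GFP+ array reached a GFP- array. The difference was -1.96 ± 0.53 with citrus (adjusted p = 0.014) and -1.79 ± 0.53 with vehicle (adjusted p = 0.0244). Its call was lost without citrus replicate 1 with citrus. With vehicle it was lost without vehicle replicate 1 or 4 and where the fit held only the groups compared.

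**Figure D2:**
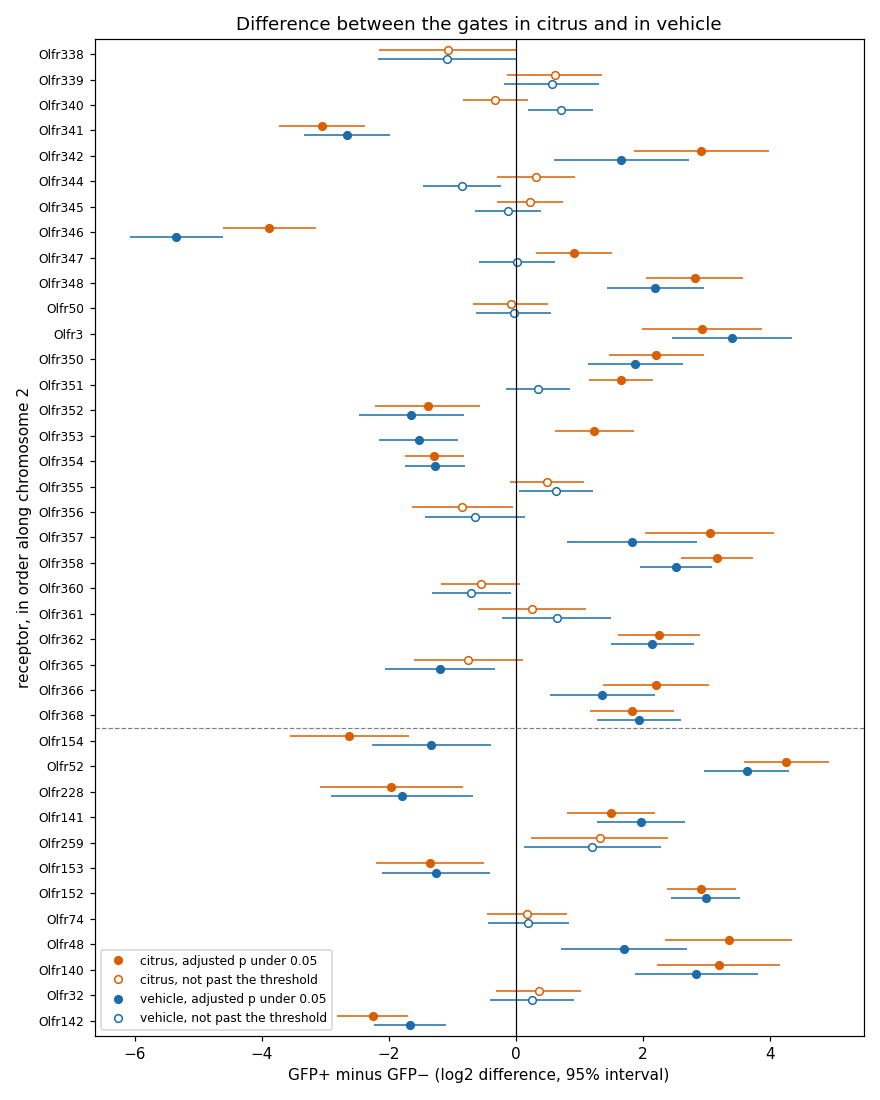
GFP+ minus GFP- (log2 difference, 95% interval from the fit) of the 39 receptors in chromosome order, with citrus and with vehicle; filled points passed an adjusted p of 0.05, open points did not, and the dashed line parts the proximal from the distal receptors. The 2 points have the same sign for 35 of the 39, while Olfr353 lies at 1.24 with citrus and at -1.53 with vehicle.

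Receptors higher and lower in GFP+ cells lay side by side in the cluster, as did Olfr341 (lower) and Olfr342 (higher) in both stimuli. In the MOR136 family, with 14 of the 39, 5 were higher and 3 lower with citrus, and 4 higher and 3 lower with vehicle, from -3.88 for Olfr346 to 2.93 for Olfr3 with citrus. The 4 MOR138 receptors gave 2 higher and 0 lower with citrus, and 2 higher and 1 lower with vehicle. Of the 3 MOR159 receptors, Olfr358 was the one that passed. In all, 12 of the 27 proximal receptors were higher and 4 lower with citrus, and 9 and 6 with vehicle. Of the 12 distal receptors, 5 were higher and 4 lower in each stimulus.

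The calls of both stimuli were shared to a large extent. The 14 receptors higher with vehicle were all higher with citrus, which makes 82.4% of the citrus calls and 100% of the vehicle calls. The 3 called higher with citrus and not with vehicle were Olfr347, Olfr351 and Olfr353. The 8 receptors lower with citrus were all lower with vehicle, 100% and 80% of the calls, and vehicle added Olfr353 and Olfr365. The vehicle call of Olfr365 (adjusted p = 0.0494) was kept in 7 of 15 alternatives, and lost without citrus replicate 3 or 4 and without vehicle replicate 2, 3 or 4 among others. The citrus call of Olfr347 was kept in 9 of 14, and lost without citrus replicate 2, 3 or 4. A call in 1 stimulus alone does not show a difference between the stimuli, which the change of the gate difference tests. Signs matched for 35 of the 39, and Olfr340, Olfr344, Olfr345 and Olfr353 had opposite signs. The 2 gate differences come from different mice, and over the 39 receptors, which share arrays, they had a Pearson correlation of 0.92, given as a description. The 13 that passed in neither were Olfr338, Olfr339, Olfr340, Olfr344, Olfr345, Olfr50, Olfr355, Olfr356, Olfr360, Olfr361, Olfr259, Olfr74 (mOR-EV, known in mouse as a receptor for vanillin-type odorants) and Olfr32. With the pools as a block, Olfr347 (adjusted p = 0.0749) and Olfr153 (adjusted p = 0.0571) lost their call with citrus, and Olfr153 with vehicle (adjusted p = 0.0711).

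Olfr353 was the one receptor of the 39 that passed in opposite directions in the 2 stimuli. It was higher in GFP+ than in GFP- cells after citrus and lower in GFP+ than in GFP- cells after vehicle. The arrays read 7.27, 7.46, 7.42 and 6.45 in citrus GFP+ cells, 6.81, 6.09, 5.15 and 5.60 in citrus GFP- cells, 5.27, 5.28, 5.13 and 5.60 in vehicle GFP+ cells and 7.00, 6.60, 6.62 and 7.19 in vehicle GFP- cells. With citrus, GFP+ replicate 4 lay below GFP- replicate 1, so the gates overlapped, while with vehicle every GFP+ array was below every GFP- array. The difference was 1.24 ± 0.29 with citrus (adjusted p = 0.00566) and -1.53 ± 0.29 with vehicle (adjusted p = 0.00109). Within GFP+ cells, citrus arrays were all above vehicle arrays.

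Between the stimuli, Olfr353 averaged 7.15 ± 0.47 in citrus GFP+ cells and 5.32 ± 0.20 in vehicle GFP+ cells (SD, n = 4 arrays each). That difference of 1.83 ± 0.29 was 1 of 4 calls over all tested probe sets (adjusted p = 0.0462), where 0.0204% were higher and 0% lower, and the 1 call among the 39 receptors. The other 3 calls were Pcdh10, Camk2n1 and Sema7a, which are not odorant receptors. In GFP- cells it averaged 5.91 ± 0.71 with citrus and 6.85 ± 0.29 with vehicle (SD, n = 4 arrays each), a difference of -0.94 ± 0.29 that did not pass (adjusted p = 0.808).

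The assay reads the change of the gate difference, citrus minus vehicle. Per pool, Olfr353 differed between gates by 0.45, 1.37, 2.27 and 0.85 with citrus and by -1.73, -1.32, -1.49 and -1.59 with vehicle. All citrus pools were above 0 and all vehicle pools below it. The change was 2.77 ± 0.42 (95% interval 1.89 to 3.65). It ranked first by p of all 19572 probe sets, and its adjusted p of 0.0807 missed the threshold. For this comparison 0% of all tested probe sets were higher and 0% lower, and 722 had an unadjusted p under 0.05. Since the pools of Olfr353 did not overlap, an exact two-sided permutation could give only its smallest p over 70 assignments, 0.0286, and it adds no evidence to the separation itself. S100a5 changed by -0.03 ± 0.18 and Omp by -0.09 ± 0.19. This change leaves out a shift that both gates share. Citrus minus vehicle for S100a5 was 0.57 ± 0.13 in GFP+ cells (adjusted p = 0.656). In GFP- cells it was 0.61 ± 0.13 (adjusted p = 0.442), and neither passed. In both gates, though, the 4 citrus arrays of S100a5 all lay above the 4 vehicle arrays. In GFP+ cells 1.47% of all tested probe sets were apart in that direction, and the share in GFP- cells was not computed.

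The Olfr353 calls were not equally firm. The difference in GFP+ cells ranged from 1.59 to 2.06 over 14 alternative settings, with adjusted p from 0.0184 to 0.395, and passed in 5. The change of the gate difference ranged from 2.42 to 3.03 over 13, with adjusted p from 0.0151 to 0.818, and passed in 3. The gate difference with vehicle passed in all 14 and that with citrus in 12 of 14, lost with receptor-median centring and without citrus replicate 3.

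**Figure D3:**
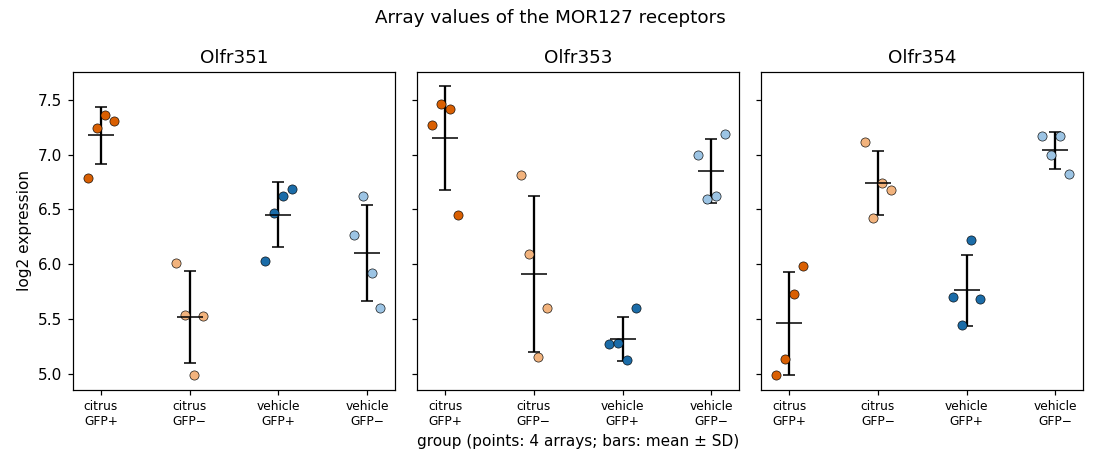
Log2 expression of the 3 MOR127 receptors on each array (points) with the group mean and SD (bars), for citrus GFP+, citrus GFP-, vehicle GFP+ and vehicle GFP- cells. Olfr353 is high in citrus GFP+ and vehicle GFP- cells, Olfr351 is highest in citrus GFP+ cells, and Olfr354 is lower in GFP+ cells in both stimuli.

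The 2 other MOR127 receptors lie on either side of Olfr353, Olfr354 next to it and Olfr351 beyond Olfr352. Olfr351 read 6.79, 7.24, 7.36 and 7.31 in citrus GFP+ cells, 6.01, 5.54, 4.99 and 5.53 in citrus GFP- cells, 6.03, 6.47, 6.62 and 6.69 in vehicle GFP+ cells and 6.27, 6.62, 5.92 and 5.60 in vehicle GFP- cells. Citrus GFP+ arrays were above all others, and with vehicle the gates overlapped. The difference was 1.66 ± 0.24 with citrus (adjusted p = 5.32e-05) and 0.35 ± 0.24 with vehicle (adjusted p = 0.35). Per pool, Olfr351 differed between gates by 0.78, 1.70, 2.37 and 1.78 with citrus and by -0.24, -0.15, 0.70 and 1.09 with vehicle. Its lowest citrus pool lay below its highest vehicle pool. The change of the gate difference was 1.31 ± 0.34 (adjusted p = 0.999), and in GFP+ cells alone citrus minus vehicle was 0.72 ± 0.24 (adjusted p = 0.999); neither passed. Olfr354 read 4.99, 5.14, 5.73 and 5.98 in citrus GFP+ cells, 7.12, 6.42, 6.74 and 6.68 in citrus GFP- cells, 5.70, 5.45, 6.22 and 5.68 in vehicle GFP+ cells and 7.17, 7.00, 7.17 and 6.82 in vehicle GFP- cells, lower in every GFP+ array than in any GFP- array of its stimulus. The difference was -1.28 ± 0.22 with citrus (adjusted p = 0.000359) and -1.28 ± 0.22 with vehicle (adjusted p = 0.000438). Its change of the gate difference had an interval of -0.67 to 0.66. Whether probes of Olfr351 or Olfr353 also bind RNA of the other was not tested, since the probe sequences were not used here.

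No further low-numbered receptor passed between the stimuli. In GFP- cells 0 of the 39 passed in limma's test, beside 0.0102% of all tested probe sets higher and 0.00511% lower, and 8 of the 39 (20.5%) had an unadjusted p under 0.05, beside 4.66% of the other receptors and 5.88% of all tested probe sets. For the change of the gate difference that number was 7 of 39 (17.9%), beside 4.47% and 3.69%. Receptors of the same arrays are not independent, and these shares are a description. Olfr48 gave the largest shift in GFP- cells, -1.82 ± 0.47 (adjusted p = 0.746), and its 4 citrus GFP- arrays were all below its 4 vehicle GFP- arrays. It passed where the fit held only the groups compared. Olfr346 followed with -1.20 ± 0.35 (adjusted p = 0.773), and its gates lay closer with citrus, by -3.76, -4.17, -4.12 and -3.47 per pool, than with vehicle, by -4.52, -5.83, -6.20 and -4.84. That change of 1.47 ± 0.49 had groups of pools that did not overlap and an adjusted p of 0.999. Pools were apart in this way for 3 of the 39, Olfr346, Olfr353 and Olfr357, each with the gate difference higher with citrus. For Olfr357 the change was 1.22 ± 0.68 (adjusted p = 0.999). The share of all tested probe sets with pools apart was not computed, so the count of 3 is a description.

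Olfr340 and Olfr344 of the MOR136 family had opposite signs in the 2 stimuli. Olfr340 read 4.85, 5.19, 4.50 and 4.30 in citrus GFP+ cells, 4.97, 4.86, 4.91 and 5.41 in citrus GFP- cells, 5.30, 5.17, 5.21 and 5.04 in vehicle GFP+ cells and 4.47, 5.21, 4.35 and 3.88 in vehicle GFP- cells. All groups overlapped with their counterparts. The change of its gate difference was -1.03 ± 0.34 (adjusted p = 0.999), with the negative sign meaning a smaller gate difference with citrus. Olfr344 read 3.26, 3.71, 4.12 and 3.66 in citrus GFP+ cells, 3.76, 3.51, 2.86 and 3.37 in citrus GFP- cells, 3.67, 2.68, 3.03 and 3.42 in vehicle GFP+ cells and 3.19, 4.57, 4.45 and 3.99 in vehicle GFP- cells, at levels near the lowest on the arrays. Its change was 1.16 ± 0.42 (adjusted p = 0.999). Olfr347 read 7.49, 7.69, 7.88 and 7.39 in citrus GFP+ cells, 7.39, 6.63, 6.11 and 6.66 in citrus GFP- cells, 6.78, 7.87, 7.40 and 7.79 in vehicle GFP+ cells and 7.99, 7.27, 7.57 and 6.91 in vehicle GFP- cells. Citrus GFP- arrays were low but overlapped with vehicle GFP- arrays, with a difference of -0.74 ± 0.28 (adjusted p = 0.824).

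The 5 smallest p in GFP+ cells also included Olfr154 at -0.83 ± 0.45 and Olfr360 at 0.51 ± 0.30, with adjusted p = 0.999 for both. Of the 39, Olfr351 and Olfr353 were the 2 whose GFP+ arrays did not overlap between stimuli, both higher with citrus. Over all tested probe sets 1.47% were apart in that direction and 1.26% in the other, and the count of 2 is given as a description. The median citrus minus vehicle difference of the 39 was 0.09 in GFP+ cells and -0.12 in GFP- cells, beside 0.18 and 0.06 over the other receptors. None of the 245 other chromosome 2 receptors passed in either gate. Their highest citrus minus vehicle difference in GFP+ cells was 2.87, and their highest change of the gate difference 2.98. Both were larger than those of Olfr353, 1.83 and 2.77.

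**Figure D4:**
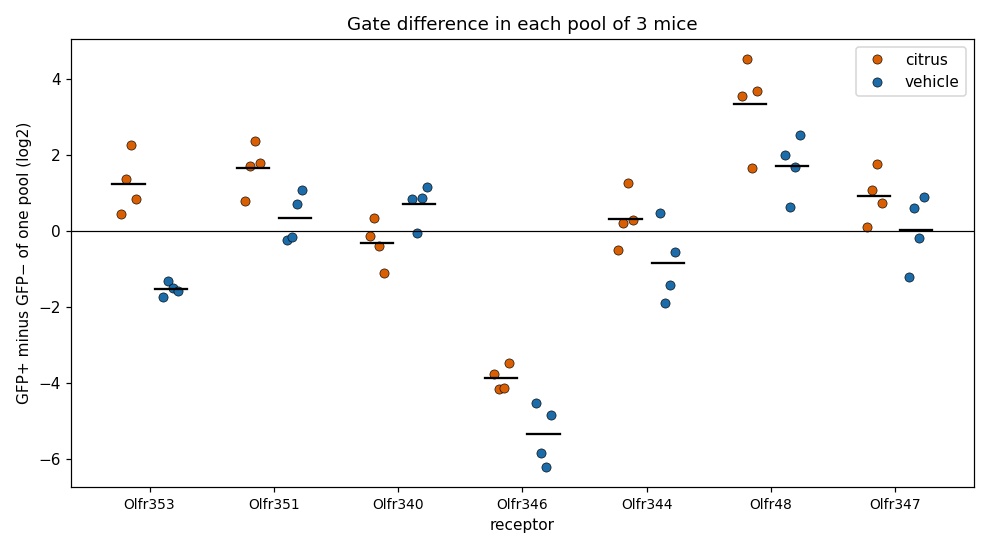
GFP+ minus GFP- (log2) within each pool of 3 mice for the receptors with the smallest p between stimuli, citrus pools beside vehicle pools, with a bar at the mean of 4 pools. Olfr353 is the receptor whose citrus pools (0.45 to 2.27) and vehicle pools (-1.73 to -1.32) lie on opposite sides of 0, while the pools of Olfr346 stay below 0 in both stimuli.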

How the data were processed

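RNA of sorted olfactory mucosa cells was measured on 16 Clariom S mouse arrays, 4 per group, grouped by the labels' stimulus and gate. Expression Console (Affymetrix) was used, per the submitters' processing notes, and the deposited log2 values cover 28846 probe sets, controls included. A label names SST-RMA gene-level signals, a transformation under which a difference may be larger or smaller than the true log2 ratio of RNA. For the genome build, the probe sequences and the version of Expression Console: not given in the sources used here. Values were used as deposited, and 0 columns of other samples were present. Probe sets were named from the platform annotation, 0 with several symbols; 6640 controls and 2634 without a symbol were left out, which left 19572. Members were placed by Entrez identifier in RefSeq's GRCm38.p6 gene table (39 of 39 matched), used for gene order and names; window sequences are RefSeq's on the same build.

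One mean per group was fitted with limma 3.58.1 in R 4.3.3, and 5 contrasts were tested two-sided with eBayes and Benjamini-Hochberg adjustment over all tested probe sets. All errors of differences are standard errors of that fit. The fit was run on simulated data, with independent arrays and changes in citrus GFP+ cells alone. Such data cannot show how the fit handles arrays that share a pool. Alternatives were the pool as block, 2 centrings, a filter on dim probe sets, other test sets, another prior and leaving out each pool. GFP+ and GFP- arrays with the same stimulus and number come from the same mice, per the labels, so these numbers pair the gates (correlations of deviations 0.075 to 0.275 per pool). The sample titles share a number tag whose meaning is not given, and nothing says whether the arrays were run in several batches. Windows were aligned pairwise with Biopython 1.88. Protein identity between receptors was planned and was not analysed here. The receptors named with full values are Olfr353, up to 5 per direction with the largest gate difference past the threshold, the 5 smallest p in the other comparisons, and the highest and lowest mean. The members, the gene lists and the tests were chosen with earlier results of these data known.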

Additional observations from a re-analysis of the deposited data

Results flagged for a closer look

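In 6 of the 156 groups of 4 arrays, 1 array stood apart from the other 3, where chance gives about 1 in 20 groups. In citrus GFP+ cells, replicate 1 was apart for 3 receptors. Olfr346 read 5.13 there against 3.88 to 3.93 on the others, Olfr152 read 8.45 against 7.85 to 7.93, and Olfr228 read 5.30 against 6.67 to 6.84. In citrus GFP- cells, Olfr360 read 12.29 on replicate 3 against 12.95 to 13.05, and Olfr361 read 6.11 on replicate 2 against 6.79 to 6.86. In vehicle GFP+ cells, Olfr355 read 8.27 on replicate 3 against 8.53 to 8.55.

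The gate difference of Olfr353 was positive in all citrus pools and negative in all vehicle pools, a change of 2.77 on the log2 scale. The test of that change gave an adjusted p of 0.0807 in the limma fit.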

How the results depend on the processing

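No called value changed sign under the alternatives run. Of 523 values of named receptors under another setting, 503 kept direction and side of the threshold, 16 fell short of it and 4 newly passed. These receptors were named for large differences or small p, and the 523 include values that had not passed at first. Calls outside them could be less stable. With vehicle, the call of Olfr365 was kept in 7 of 15 settings and that of Olfr153 in 9 of 15. Another setting kept only probe sets above background on at least 4 arrays (6364 in all, 13 of the 39). It gave 9 higher and 1 lower with citrus, and 9 higher and 2 lower with vehicle. That split was largely set by the filter and tells nothing on direction. Olfr342, Olfr358, Olfr362, Olfr368, Olfr52, Olfr141 and Olfr48 exceeded background on GFP+ arrays alone. They thus entered through the gate in which they were then higher. In GFP+ cells 0 were higher with citrus, since Olfr353 was not tested. Receptor-median centring gave 14 lower with citrus and 1 receptor, Olfr353, higher for the change of the gate difference; the trended and robust prior also gave 1 there. The GFP+ call of Olfr353 went to 0 with centring on the median of all probe sets, with all non-control probe sets tested, and with the replicate block by number. Arrays with the same number in both stimuli had correlations from 0.07 to 0.331 in GFP+ and from -0.013 to 0.354 in GFP- cells, some as large as those within pools, and the labels do not say whether the number marks anything shared. With only the groups compared, 1 receptor, Olfr48, was lower with citrus in GFP- cells. The causes were not tested.

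Leaving out 1 pool at a time, 15 to 18 were higher and 6 to 10 lower with citrus, and 10 to 15 higher and 6 to 10 lower with vehicle, with 6 lower without vehicle replicate 2 and without vehicle replicate 4. The GFP+ call count was 0 to 1, with 0 without citrus replicates 2 and 3 and without each vehicle replicate. For the change of the gate difference it was 0 to 1, with 1 without citrus replicate 1. The block of pools changed no gate call beyond those given for Olfr347 and Olfr153. Of the 39, 21 exceeded background on no array, which limits how far their differences can be read as sizes.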
